A study of Mus musculus with 46 samples.

Results

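Lysophospholipids are phospholipids that keep a single fatty chain on their glycerol backbone. They were taken here as every compound whose name begins with LPC, LPE, LPG, LPI or LPS or contains "lyso", in the deposited metabolite tables of kidney, liver and serum at 12 weeks and at 18 months. This gave 151 names, of 2800 compound names in all, and 516 entries, of 5760 in the 6 tables together. The entries numbered 69 of 723 in the 12-week kidney table, 78 of 737 in 12-week liver, 102 of 1493 in 12-week serum, 83 of 985 in 18-month kidney, 94 of 954 in 18-month liver and 90 of 868 in 18-month serum. By head group, 206 entries under 57 names were lysophosphatidylcholines (LPC) and 151 under 45 names were lysophosphatidylethanolamines (LPE). Lysophosphatidylglycerols (LPG) made up 51 entries under 14 names, lysophosphatidylinositols (LPI) 57 under 18, lysophosphatidylserines (LPS) 49 under 15, and lysophosphatidic acids (LPA) 2 under 2. Of the names, 30 occurred in all 6 tables, 23 in 5 tables and 36 in a single table. A name such as LPC(20:4) gives the head group, then the number of carbons and of double bonds in the chain. Many names beginning with "Lyso" also carry double-bond positions or the chain's place on the glycerol in the deposited tables, and these are left out below.

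The mice were wild-type C57BL/6 animals that had surgery when 8 weeks old and were studied 12 weeks or 18 months after birth. They formed 3 arms at each age, namely castrated males (cas-M), sham-operated females (sham-F) and sham-operated males (sham-M). Castration is read as cas-M over sham-M and sex as sham-F over sham-M, so both comparisons share the sham-M mean of their table. RNA was sequenced from kidney and liver in 46 libraries, with 6 libraries of cas-M per tissue at 12 weeks and 5 at 18 months, and 3 in every sham-F and sham-M group. Serum has no RNA counterpart. The series takes castration as a model for sex differences during ageing.

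Cells make lysophospholipids when a phospholipase A removes a chain from a membrane phospholipid, and they use them up by putting a chain back (the Lands cycle) or by cutting off the remaining chain with a lysophospholipase. LPC is the main lysophospholipid of blood plasma, where it arises from lecithin-cholesterol acyltransferase and from liver and endothelial lipases, and autotaxin cuts it to the signalling lipid LPA. LPI and LPS act as signals through receptors such as GPR55 and GPR34, and LPG lies next to the pathways of cardiolipin and of bis(monoacylglycero)phosphate, a lipid of late endosomes.

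Each table holds 1 deposited mean relative abundance per arm for each compound. The tables give no spread. The number of animals behind the means is not stated, though the header of the cas-M mean in 18-month liver ends in 6 and that of the sham-F mean in 18-month kidney in 8, with no word on what these digits are. So no ratio of lysophospholipids could be set against replicate error and no test was made. The depth behind these values is also unknown. The means are relative and can be compared between the arms of an entry, but they give no amounts of one compound against another or between tables. Ranks of entries and shares of a sum below are therefore of signal within a table, not of amount. An entry is called higher or lower below when the ratio of means was at least 1.5 in either direction, that is 0.585 on the log2 scale, and "above 0" or "below 0" gives only the sign of the log2 ratio. The share of all compounds of a table past the same limit is given as the background.

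In kidney at 12 weeks, lysophospholipids of cas-M lay mostly a little above those of sham-M. For castration, 10 of 69 entries were higher (14.5%, against 13.7% of all compounds) and 3 were lower (4.35%, against 10.4%). The median log2 ratio was 0.12, beside 0.03 over all compounds. For sex, 12 were higher (17.4%, against 16.5%) and 5 were lower (7.25%, against 13.3%), with a median of 0.27 beside 0.05. Both shares of higher entries were thus near the background, and both shares of lower entries were under it. At 18 months the kidney counts were 6 higher (7.23%, against 14.7%) and 10 lower (12%, against 11.8%) for castration, with a median of 0.06 beside 0.03. For sex they were 6 higher (7.23%, against 12.5%) and 16 lower (19.3%, against 24.9%), with a median of -0.03 beside -0.09.

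In liver at 12 weeks, lysophospholipids of cas-M lay mostly below those of sham-M, and at 18 months more entries were higher than lower. At 12 weeks castration gave 7 of 78 higher (8.97%, against 11.4% of all compounds) and 11 lower (14.1%, against 15.3%), with a median log2 ratio of -0.18 beside -0.06. Sex gave 6 higher (7.69%, against 10.7%) and 12 lower (15.4%, against 16.4%), with a median of -0.08 beside -0.03. At 18 months castration gave 18 of 94 higher (19.1%, against 15.9%) and 12 lower (12.8%, against 11.4%), with a median of 0.13 beside 0.04. Sex gave 24 higher (25.5%, against 16.8%) and 10 lower (10.6%, against 15.3%), with a median of 0.15 beside 0.05. In liver the share past the limit was farthest from the background in the 18-month sex comparison.

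In serum, castration went with lower lysophospholipids at both ages. At 12 weeks 8 of 102 entries were higher (7.84%, against 16.5% of all compounds) and 25 were lower (24.5%, against 13%), with a median log2 ratio of -0.17 beside -0.04. At 18 months 4 of 90 were higher (4.44%, against 16.6%) and 15 were lower (16.7%, against 13.4%), with a median of -0.14 beside 0.00. The sex comparison was more even, with 11 higher (10.8%, against 22.8%) and 14 lower (13.7%, against 16.5%) at 12 weeks, and 13 higher (14.4%, against 17.7%) and 8 lower (8.89%, against 24.1%) at 18 months. Centred on the table's median, the sex split became 8 higher and 17 lower at 12 weeks and 14 higher and 5 lower at 18 months.

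**Figure D1:**
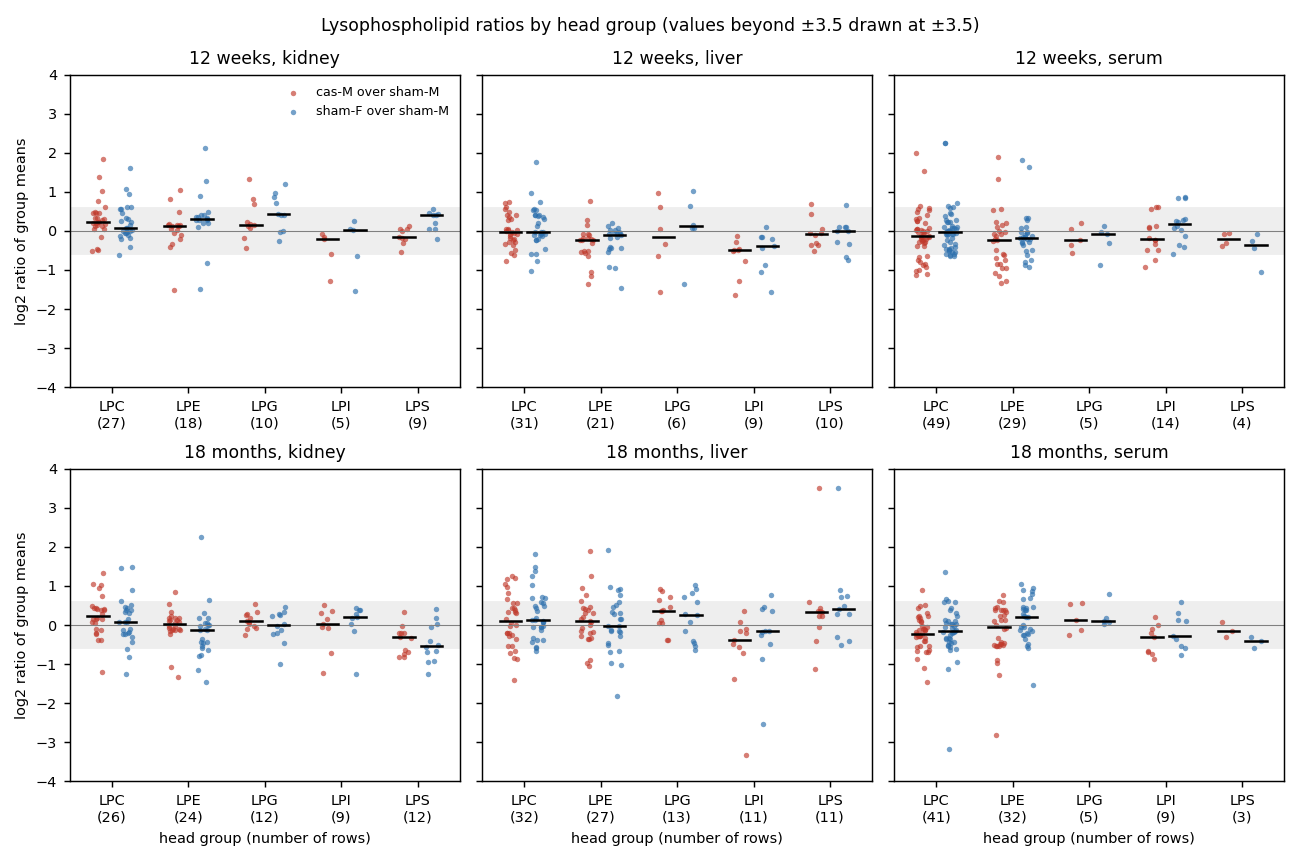
Log2 ratios of group means (vertical axis, no unit) for every LPC, LPE, LPG, LPI and LPS entry, 1 panel per table, with cas-M over sham-M in red and sham-F over sham-M in blue. Points are single compounds, black bars are medians and the grey band is the 1.5-fold limit. LPI lay below 0 for castration in both liver panels (medians -0.50 and -0.39), and LPG lay above 0 in 18-month liver (median 0.37).

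LPG with highly unsaturated chains lay above sham-M in cas-M and in sham-F in kidney and liver. LPG with saturated or monounsaturated chains lay on both sides of sham-M over these tables, though above it in 12-week kidney. In the kidney and liver tables together, LPG with 4 or more double bonds gave 14 castration ratios under 5 names, and all 14 were above 0, beside 52% of the 3399 ratios of all compounds in these 4 tables. Of the 14, 9 were higher (background 14.1%) and none was lower (12.2%), with a median log2 ratio of 0.66 and a range of 0.25 to 1.32. Sex gave 14 of 14 above 0 (background 50%) and 9 higher (14.2%), with a median of 0.77. LPG with 0 or 1 double bond gave 16 castration ratios, of which 8 were above 0 and 8 below, 0 were higher and 2 were lower, with a median of 0.02. Its sex ratios were 8 above 0 and 8 below, with 1 higher and 2 lower and a median of -0.01. In 12-week kidney, however, all LPG with 0 or 1 double bond lay above 0 in both comparisons. The medians there were 0.19 and 0.10 for castration and 0.42 and 0.20 for sex. The 2 or 3 double-bond class, with 11 ratios, had 0 higher and 0 lower for castration. The 14 ratios come from 4 tables whose entries share their samples, so they are not 14 independent observations.

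The members behind that count were LPG(20:4), LPG(20:5), LPG(22:4), LPG(22:5) and LPG(22:6). LPG(20:4), with a chain of the length and unsaturation of arachidonic acid, had 0.819 in cas-M and 0.840 in sham-F, against 0.462 in sham-M in 12-week kidney. Its means were 0.117 in cas-M and 0.118 in sham-F, against 0.0767 in sham-M in 12-week liver. At 18 months they were 0.890 in cas-M and 0.848 in sham-F, against 0.618 in sham-M in kidney, and 0.938 in cas-M and 1.02 in sham-F, against 0.496 in sham-M in liver. The castration log2 ratios were 0.83, 0.61, 0.53 and 0.92, and the means of cas-M and sham-F were each above that of sham-M in these 4 tables. In 18-month serum the means of LPG(20:4) were 0.323 in cas-M and 0.383 in sham-F, against 0.355 in sham-M, with log2 ratios of -0.13 for castration and 0.11 for sex, both within the limit.

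LPG(22:5) had the largest ratio of its head group in kidney at 12 weeks, with means of 1.65 in cas-M and 1.53 in sham-F, against 0.664 in sham-M (log2 ratios of 1.32 for castration and 1.21 for sex). In 12-week liver it had 0.158 in cas-M and 0.165 in sham-F, against 0.0805 in sham-M, and in 18-month liver 0.223 in cas-M and 0.255 in sham-F, against 0.144 in sham-M. LPG(22:6), the LPG entry with the strongest signal in both kidney tables and in 18-month liver, had 7.14 in cas-M and 8.65 in sham-F, against 4.40 in sham-M in 12-week kidney and 2.88 in cas-M and 3.0 in sham-F, against 1.58 in sham-M in 18-month liver. In 18-month kidney the arms were closer, with 8.67 in cas-M and 8.58 in sham-F, against 7.30 in sham-M (log2 ratio of 0.25 for castration). The remaining ratios of this class were 0.27 for LPG(22:5) and 0.32 for LPG(22:4) in 18-month kidney, and 0.37 for LPG(22:4) and 0.72 for LPG(20:5) in 18-month liver. At the other end was LPG(20:1), which had 0.00731 in cas-M and 0.00838 in sham-F, against 0.0217 in sham-M in 12-week liver, a castration log2 ratio of -1.57. Summed over all LPG entries, where LPG(22:6) alone held 48.7% of the summed signal in 12-week kidney and 65.6% in 18-month kidney, the castration log2 ratios were 0.49 in 12-week kidney, -0.03 in 12-week liver, 0.20 in 18-month kidney and 0.47 in 18-month liver.

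**Figure D2:**
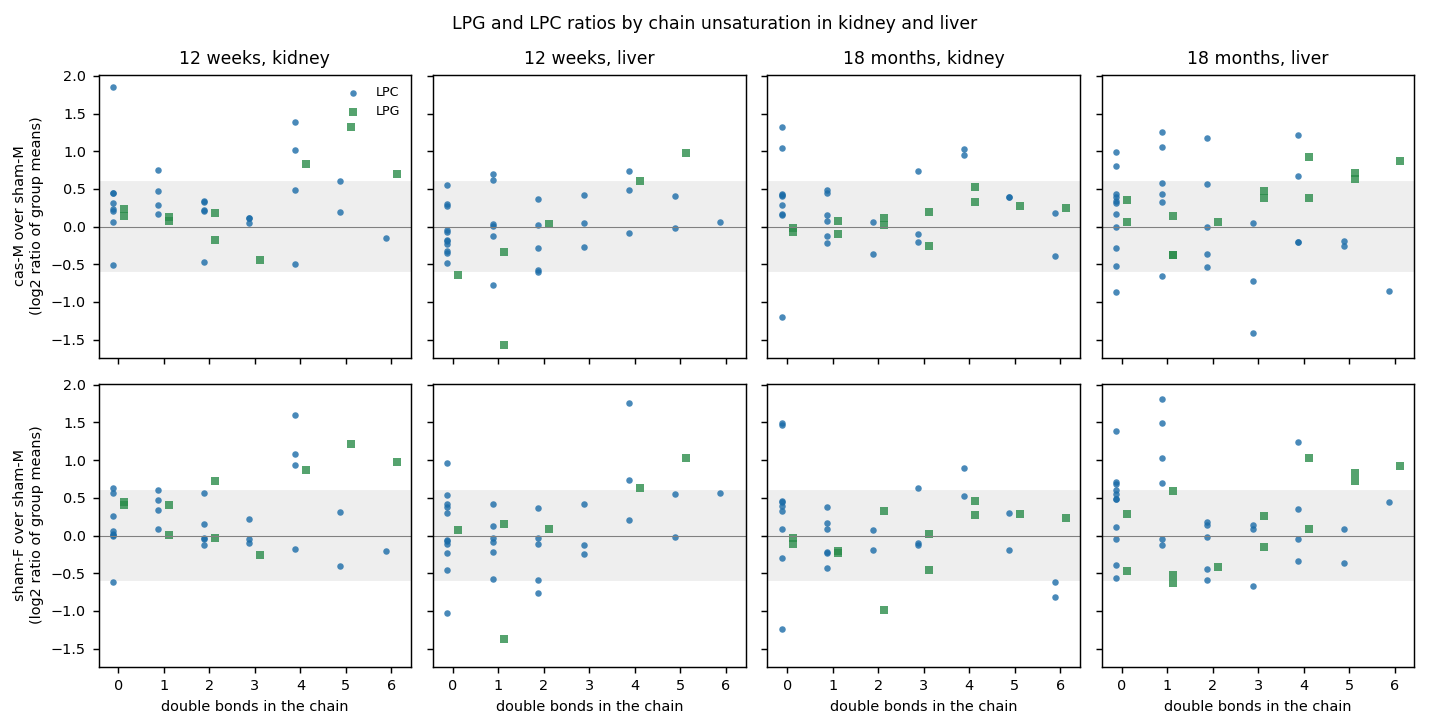
Log2 ratios of group means (vertical axis, cas-M over sham-M in the upper row, sham-F over sham-M in the lower row) of LPG (green squares) and LPC (blue circles) against the number of double bonds in the chain, in the kidney and liver tables. The 14 LPG ratios at 4 or more double bonds lay above 0 in each row, while the LPG ratios at 0 or 1 lay on both sides of it.

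LPC is the head group with most entries, and its 20:4 species, with both of its entries summed, was higher in cas-M in kidney and liver at both ages. LPC 20:4 appears as 2 entries, LPC(20:4) and LysoPC(20:4). The deposited name of the second places the double bonds as in an n-3 chain in 5 of the 6 tables, and as in arachidonic acid in 12-week serum. Which of them had the stronger signal switched between tables. LysoPC(20:4) lay at the 99th percentile of signal in 12-week kidney, where LPC(20:4) was at 0.692, and the order was reversed in 12-week liver, with LPC(20:4) at 97.4 and LysoPC(20:4) at 27.3. The 2 entries were therefore also summed. The sum was 123 in cas-M and 116 in sham-F, against 60.8 in sham-M in 12-week kidney (log2 ratios of 1.01 for castration and 0.94 for sex) and 3.89 in cas-M and 3.92 in sham-F, against 2.34 in sham-M in 12-week liver (0.73 and 0.74). In 18-month kidney it was 8.68 in cas-M and 6.45 in sham-F, against 4.47 in sham-M (0.96 and 0.53), and in 18-month liver 17.9 in cas-M and 26.7 in sham-F, against 11.3 in sham-M (0.67 and 1.24). The castration ratio of the sum passed the limit in all 4 organ tables, and the sex ratio passed it in 3, with 18-month kidney just inside it. The sum follows the stronger entry, and the entries did not go together everywhere. For castration, LPC(20:4) and LysoPC(20:4) had log2 ratios of 0.49 and 1.01 in 12-week kidney and of 1.03 and 0.96 in 18-month kidney. In liver they lay on opposite sides of 0, at 0.73 and -0.09 at 12 weeks and at -0.21 and 0.67 at 18 months. Serum differed from the organs in this species. The summed means were 0.000489 in cas-M and 0.000517 in sham-F, against 0.000551 in sham-M in 12-week serum (-0.17 and -0.09) and 129 in cas-M and 206 in sham-F, against 137 in sham-M in 18-month serum (-0.09 and 0.59).

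In kidney, most LPC lay above 0 for castration at both ages. In 12-week kidney 23 of 27 LPC entries were above 0 (54.9% of all compounds), with a median log2 ratio of 0.23, 5 higher and 0 lower. In 18-month kidney it was 19 of 26 (54.1%), with a median of 0.24, 5 higher and 1 lower. The summed LPC signal of 12-week kidney was 340.1 in cas-M and 298 in sham-F, against 247 in sham-M, and 46.5% of it was the single entry LysoPC(18:2). That entry and LysoPC(20:4) together set most of this sum, so it says little of the other entries.

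Among single LPC of kidney, LPC(17:0), an odd-chain species, had 1.31 in cas-M and 0.365 in sham-F, against 0.365 in sham-M in 12-week kidney, a castration log2 ratio of 1.85 with sham-F level with sham-M. LPC(24:4) had 0.383 in cas-M and 0.446 in sham-F, against 0.147 in sham-M there (1.38 for castration, 1.60 for sex). In 18-month kidney, LysoPC(15:0) had 0.224 in cas-M and 0.247 in sham-F, against 0.0895 in sham-M, and LPC(19:0) had 0.183 in cas-M and 0.249 in sham-F, against 0.0886 in sham-M, both higher in cas-M and in sham-F. The second entry of the 15:0 chain, LPC(15:0), had a slightly stronger signal there. Its log2 ratios were 0.41 for castration and 0.39 for sex, within the limit. The single LPC lower for castration in that table was the plasmalogen LysoPC(P-16:0), whose chain is held by a vinyl ether bond. Its means were 0.0242 in cas-M and 0.0235 in sham-F, against 0.0558 in sham-M (log2 ratios of -1.20 and -1.25). LPC(22:6), with a chain like that of docosahexaenoic acid, separated the sexes but not the male arms in 18-month kidney, at 8.11 in cas-M and 4.03 in sham-F, against 7.13 in sham-M.

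LPC in liver had no common direction. In 12-week liver 15 of 31 entries were above 0 for castration (43.3% of all compounds), with a median of -0.03, 3 higher and 2 lower. In 18-month liver 17 of 32 were above 0 (54.2%), with a median of 0.10, 7 higher and 5 lower. LPC(18:0), a saturated species, had 1.10 in cas-M and 1.45 in sham-F, against 0.556 in sham-M in 18-month liver (0.99 for castration and 1.39 for sex). It was above 0 in 6 of 6 tables for both comparisons, though past the limit for castration in this table alone. A second entry of this species, LysoPC(18:0), occurred in 12-week liver alone, with a signal near that of LPC(18:0). Its log2 ratios there were -0.05 for castration and 0.30 for sex, against 0.28 and 0.38 for LPC(18:0). LPC(19:1) was above 0 for castration in all 5 tables that hold it, as were 6.63% of all compounds held in 5 tables. It had 0.0945 in cas-M and 0.138 in sham-F, against 0.0395 in sham-M in 18-month liver. LPC(22:6) separated cas-M from both sham arms there, at 3.12 in cas-M and 7.63 in sham-F, against 5.62 in sham-M. The plasmalogen LysoPC(P-18:1) had 0.0276 in cas-M and 0.0270 in sham-F, against 0.0133 in sham-M.

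Serum LPC lay mostly lower in cas-M than in sham-M. In 12-week serum 29 of 49 LPC were below 0 for castration (53% of all compounds), with 4 higher and 11 lower, and in 18-month serum 29 of 41 (49.7%), with 1 higher and 7 lower. LPC(18:2), a linoleoyl-type species that held 54.9% of the summed LPC signal of 18-month serum, had 244 in cas-M and 486 in sham-F, against 396 in sham-M. Its castration log2 ratio was -0.70 and its sex ratio 0.30, so cas-M was lowest and sham-F highest. LPC(16:0), which held 74.9% of the summed LPC signal of 12-week serum, had 0.0319 in cas-M and 0.0235 in sham-F, against 0.0366 in sham-M (-0.20 and -0.64). Against this trend, LPC(22:1) had 2.33e-05 in cas-M and 2.79e-05 in sham-F, against 5.85e-06 in sham-M, and LPC(20:0) had 2.28e-05 in cas-M and 3.76e-05 in sham-F, against 7.92e-06 in sham-M in 12-week serum, the largest LPC ratios of that table. The second entry of the 20:0 chain, LysoPC(20:0), had ratios of 0.05 for castration and -0.47 for sex, and both entries summed gave 0.42 and 0.47, within the limit. LPC(22:6) was also higher in 12-week serum, at 0.00113 in cas-M and 0.00121 in sham-F, against 0.000734 in sham-M, but in 18-month serum it was lower, at 5.75 in cas-M and 4.69 in sham-F, against 9.01 in sham-M. Its second entry, LysoPC(22:6), had a far weaker signal and lay on the other side of 0 for castration in both. The castration log2 ratios of LysoPC(22:6) were -1.11 at 12 weeks and 0.32 at 18 months, against 0.63 and -0.65 for LPC(22:6).

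In 18-month serum, entries with 20 or more carbons lay mostly below 0 for castration, and the medians of the shorter classes were not in order of length. Of the 41 lysophospholipids with 20 or more carbons, 32 were below 0 (49.7% of all compounds were below 0) and 9 were lower, with a median log2 ratio of -0.40. Of the 27 with 18 or 19 carbons 12 were below 0, with a median of 0.07, and of the 22 with up to 17 carbons 13 were below 0, with a median of -0.10. LPC(20:1) is an example of the long chains, with 0.488 in cas-M and 0.680 in sham-F, against 1.05 in sham-M. The count takes each entry singly, and some long chains had entries on both sides of 0. LPE(22:5) and LPE(22:6) had castration log2 ratios of 0.45 and 0.38. Their second entries, with far weaker signals, were at -0.97 and -0.88. Other long chains, such as LPE 20:4 and LPC 22:5, lay below 0 under each of their names. In 12-week serum the 48 entries with 20 or more carbons had a median of -0.06, with 27 below 0 and 7 higher and 11 lower. In 12-week liver it was the short chains that stood apart, where 16 of 18 entries with up to 17 carbons were below 0 for castration and 17 of 18 for sex (56.7% and 53.9% of all compounds were), with medians of -0.42 and -0.43.

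**Figure D3:**
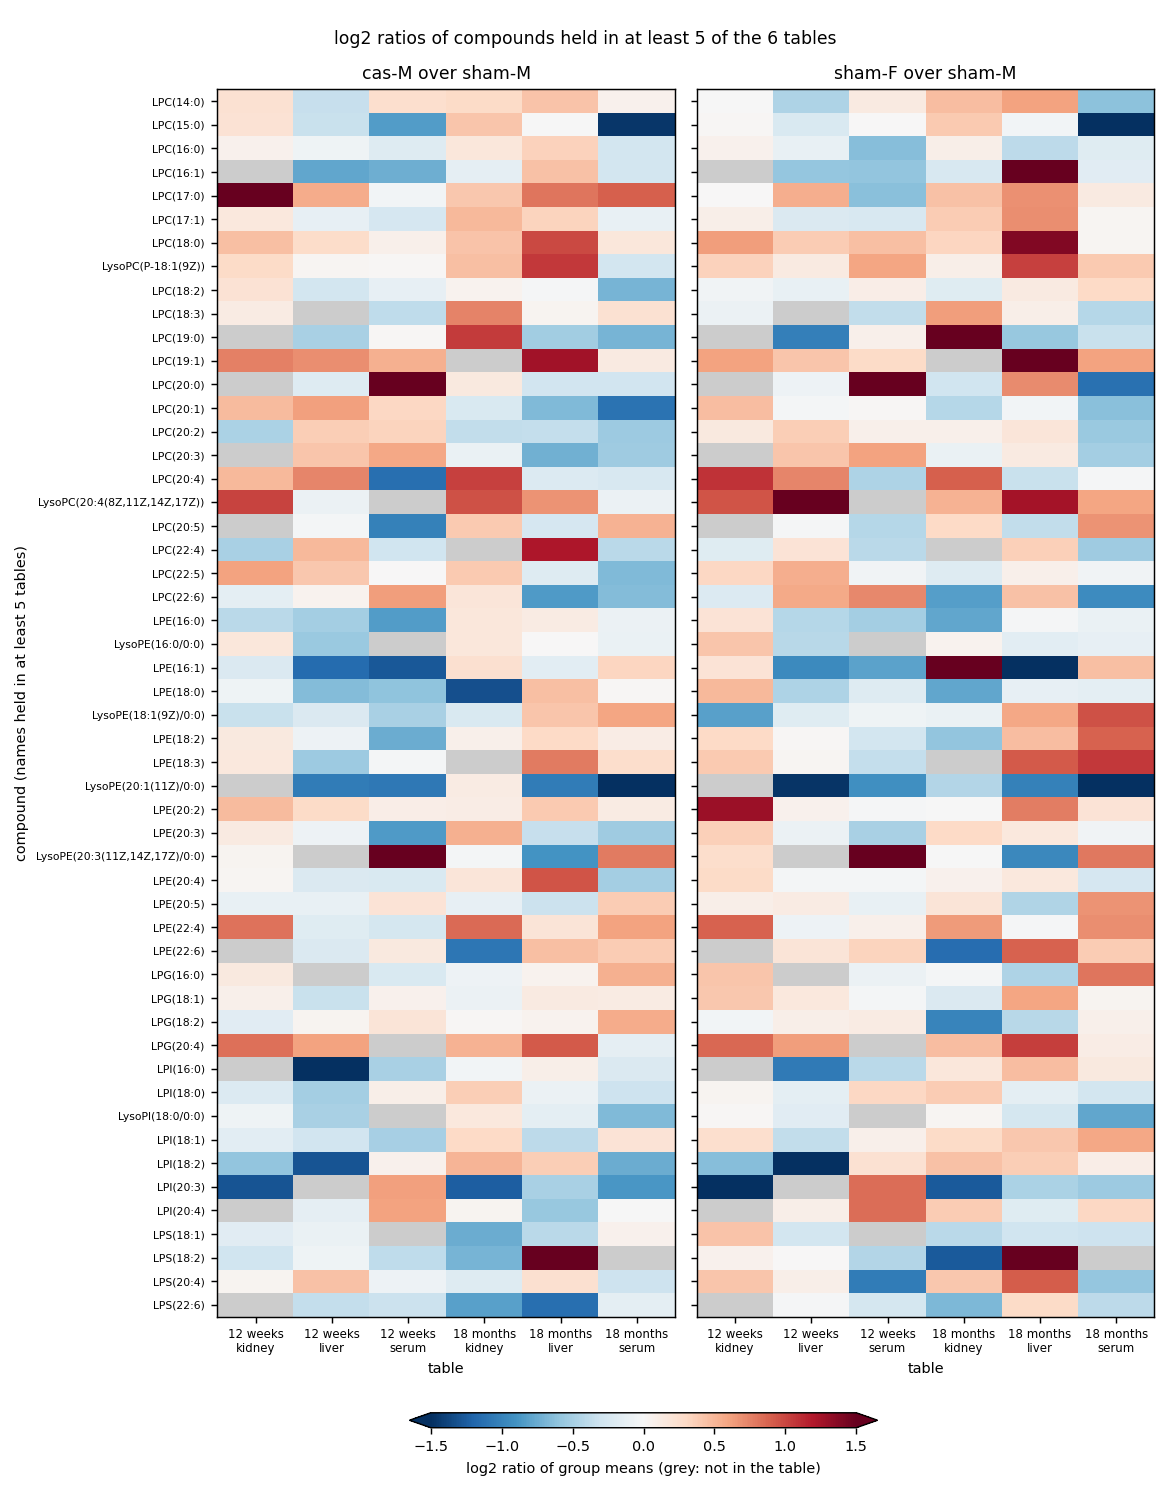
Log2 ratios of group means of 52 of the 53 lysophospholipids named in at least 5 of the 6 tables (rows, ordered by head group and chain) in each table (columns), with cas-M over sham-M on the left and sham-F over sham-M on the right. Red is above 0, blue is below 0, grey means that the table does not hold the name, and the colours end at 1.5. LPC(18:0) is above 0 in all columns, LysoPE(20:1) is below 0 in all 5 of its sex columns, and most rows change colour between tables.

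Among LPE, the monounsaturated species 16:1 and 20:1 were lower in cas-M in liver and serum, 16:1 at 12 weeks and 20:1 at both ages. LPE 16:1, with a palmitoleoyl-type chain that stearoyl-CoA desaturase makes from palmitate, was lower in cas-M in 12-week liver under both of its names. LPE(16:1) had 0.124 in cas-M and 0.143 in sham-F, against 0.276 in sham-M, and LysoPE(16:1) had 0.126 in cas-M and 0.170 in sham-F, against 0.321 in sham-M, with castration log2 ratios of -1.16 and -1.35 and sex ratios of -0.95 and -0.92. LPE(16:1) was also lower in 12-week serum, at 6.19e-06 in cas-M and 8.63e-06 in sham-F, against 1.50e-05 in sham-M (-1.28 and -0.80). The choline species of the same chain followed, LPC(16:1) having 0.384 in cas-M and 0.440 in sham-F, against 0.658 in sham-M in 12-week liver and a summed 0.000473 in cas-M and 0.000521 in sham-F, against 0.000795 in sham-M in 12-week serum. At 18 months the castration ratios of these species in liver were within the limit. The 2 LPE 16:1 entries summed to 0.364 in cas-M and 0.336 in sham-F, against 0.385 in sham-M in 18-month liver (-0.08 and -0.20), and LPC(16:1) had 0.0235 in cas-M and 0.0492 in sham-F, against 0.0174 in sham-M. Of these entries, LPE(16:1), the weaker of the LPE pair, was lower for sex as at 12 weeks (-1.81). Its means were 0.00450 in cas-M and 0.00143 in sham-F, against 0.00500 in sham-M, within the limit for castration. LPC(16:1) was instead higher for sex in 18-month liver (1.498), against -0.58 in 12-week liver. In 18-month kidney LPE(16:1) was higher for sex (2.26), while LysoPE(16:1) was at -0.36. In 18-month serum LPE(16:1) and LysoPE(16:1) were above 0, at 0.33 and 0.38 for castration and 0.45 and 0.46 for sex.

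LPE 20:1, which carries an eicosenoyl-type chain, was lower in cas-M in liver and serum at both ages. LysoPE(20:1) had 0.0389 in cas-M and 0.0289 in sham-F, against 0.0802 in sham-M in 12-week liver, and 0.0475 in cas-M and 0.0485 in sham-F, against 0.0982 in sham-M in 18-month liver. In serum it had 1.49e-05 in cas-M and 1.66e-05 in sham-F, against 3.14e-05 in sham-M at 12 weeks, and 0.0635 in cas-M and 0.156 in sham-F, against 0.446 in sham-M at 18 months. The castration log2 ratios were -1.04, -1.05, -1.08 and -2.81, each past the limit. The second entry, LPE(20:1), had castration ratios of -0.94 in 12-week serum, -0.96 in 18-month liver and -0.51 in 18-month serum, the last within the limit. Kidney at 18 months had no such difference, with 0.0310 in cas-M and 0.0210 in sham-F, against 0.0285 in sham-M for LysoPE(20:1).

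Other LPE differences were table by table. LPE(18:0) had 0.945 in cas-M and 1.37 in sham-F, against 2.36 in sham-M in 18-month kidney and 1.82 in cas-M and 2.07 in sham-F, against 2.86 in sham-M in 12-week liver, lower in cas-M in both. LPE(22:6) was lower in both other arms than in sham-M in 18-month kidney, at 1.62 in cas-M and 1.55 in sham-F, against 3.41 in sham-M. LPE(22:4) was higher, at 0.164 in cas-M and 0.173 in sham-F, against 0.0936 in sham-M in 12-week kidney, and 0.133 in cas-M and 0.116 in sham-F, against 0.0740 in sham-M in 18-month kidney, with log2 ratios of 0.81 and 0.85 for castration. LPE with 22 carbons gave both directions in 12-week kidney too, where LysoPE(22:5) had 0.429 in cas-M and 0.439 in sham-F, against 1.22 in sham-M. LPE(20:4) was higher in cas-M alone in 18-month liver, at 11.8 in cas-M and 6.85 in sham-F, against 6.14 in sham-M. Its second entry, LysoPE(20:4), had a far weaker signal there and a castration log2 ratio of -0.35, against 0.94 for LPE(20:4). LPE(20:2) was above 0 for castration in 6 of 6 tables, yet past the limit in 0 of them. By head group, LPE entries below 0 for castration numbered 18 of 21 in 12-week liver (56.7% of all compounds, LPE median -0.22), 20 of 29 in 12-week serum (53%, median -0.23) and 11 of 27 in 18-month liver (45.8%, median 0.12). They numbered 6 of 18 in 12-week kidney (45.1%, median 0.12), 12 of 24 in 18-month kidney (45.9%, median 0.02) and 16 of 32 in 18-month serum (49.7%, median -0.04).

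LPI, the inositol head group, lay mostly below 0 for castration in 4 of the 6 tables. All 9 LPI of 12-week liver were below 0 (56.7% of all compounds), with a median log2 ratio of -0.50, 0 higher and 3 lower. In 18-month liver it was 9 of 11 (45.8%), with a median of -0.39, and in 18-month serum 8 of 9 (49.7%), with a median of -0.32. All 5 of 12-week kidney were below 0 (45.1%), with a median of -0.20. The other tables did not share this, with 4 of 9 below 0 in 18-month kidney and 8 of 14 in 12-week serum. Summed LPI, led by LPI(18:0) with 59.6% of the summed signal, was 3.96 in cas-M and 4.91 in sham-F, against 5.94 in sham-M in 12-week liver. In 18-month liver the sum was 35.6 in cas-M and 38.4 in sham-F, against 43.1 in sham-M.

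LPI(16:0) had 0.271 in cas-M and 0.404 in sham-F, against 0.841 in sham-M in 12-week liver, and LPI(18:2) had 0.0512 in cas-M and 0.0426 in sham-F, against 0.125 in sham-M. Both were lower in cas-M and in sham-F (castration log2 ratios of -1.63 and -1.29). In 18-month liver neither passed the limit for castration, and the largest LPI ratio was that of LPI(20:0), at 0.00800 in cas-M and 0.0139 in sham-F, against 0.0795 in sham-M (-3.31). LPI(20:3) was lower in cas-M and sham-F in kidney at both ages, at 0.555 in cas-M and 0.467 in sham-F, against 1.36 in sham-M at 12 weeks and 0.387 in cas-M and 0.380 in sham-F, against 0.908 in sham-M at 18 months. Its ratios there were -1.29 and -1.23 for castration and -1.54 and -1.26 for sex. In 18-month serum LPI(20:3) was lower in cas-M, at 1.03 in cas-M and 1.28 in sham-F, against 1.87 in sham-M, and in 12-week serum it was higher, at 1.90e-05 in cas-M and 2.21e-05 in sham-F, against 1.24e-05 in sham-M. LPI(20:4), the arachidonoyl-type species with most of the summed LPI signal in serum, was likewise higher in 12-week serum, at 0.000264 in cas-M and 0.000311 in sham-F, against 0.000174 in sham-M, and within the limit in 18-month serum, at 19.3 in cas-M and 24.0 in sham-F, against 19.4 in sham-M.

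LPS lay mostly below 0 in kidney and above 0 in liver at 18 months. In 18-month kidney 11 of 12 LPS were below 0 for castration (45.9% of all compounds), 5 were lower and 0 higher, with a median log2 ratio of -0.31, and for sex the median was -0.54. In 18-month liver 8 of 11 were above 0 (54.2%), 2 were higher and 1 lower, with a median of 0.32, and for sex 0.42. LPS(22:6) had 0.675 in cas-M and 0.739 in sham-F, against 1.18 in sham-M in 18-month kidney, and 1.64 in cas-M and 4.40 in sham-F, against 3.60 in sham-M in 18-month liver, where cas-M alone was low. It was below 0 for castration in all 5 tables that hold it, as were 6.63% of all compounds held in 5 tables. LPS(18:2) had the largest ratio of all members, at 0.0555 in cas-M and 0.102 in sham-F, against 0.00230 in sham-M in 18-month liver (4.59 for castration and 5.47 for sex). In 18-month kidney the same compound was lower, at 0.00410 in cas-M and 0.00278 in sham-F, against 0.00665 in sham-M. At 12 weeks 0 of 9 LPS in kidney and 1 of 10 in liver passed the limit for castration. The liver entry was LPS(22:4), with 0.0458 in cas-M and 0.0456 in sham-F, against 0.0286 in sham-M.

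Only 2 LPA entries and a few ether-linked lysophospholipids fell under the naming rule. Names that begin with LPA do not, and the tables hold 6 of these in 12-week kidney, 7 in 12-week liver, 7 in 12-week serum and 1 in 18-month serum. LysoPA(16:0) had 0.0424 in cas-M and 0.0434 in sham-F, against 0.0465 in sham-M in 12-week liver, and LysoPA(18:1) had 1.51e-06 in cas-M and 1.37e-06 in sham-F, against 2.06e-06 in sham-M in 12-week serum. Neither passed the limit for castration, and LysoPA(18:1) was just past it for sex. Ether-linked entries numbered 1 to 3 in each table, and for castration 1 was lower in 18-month kidney and 1 higher in 18-month liver, both named above.

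**Figure D4:**
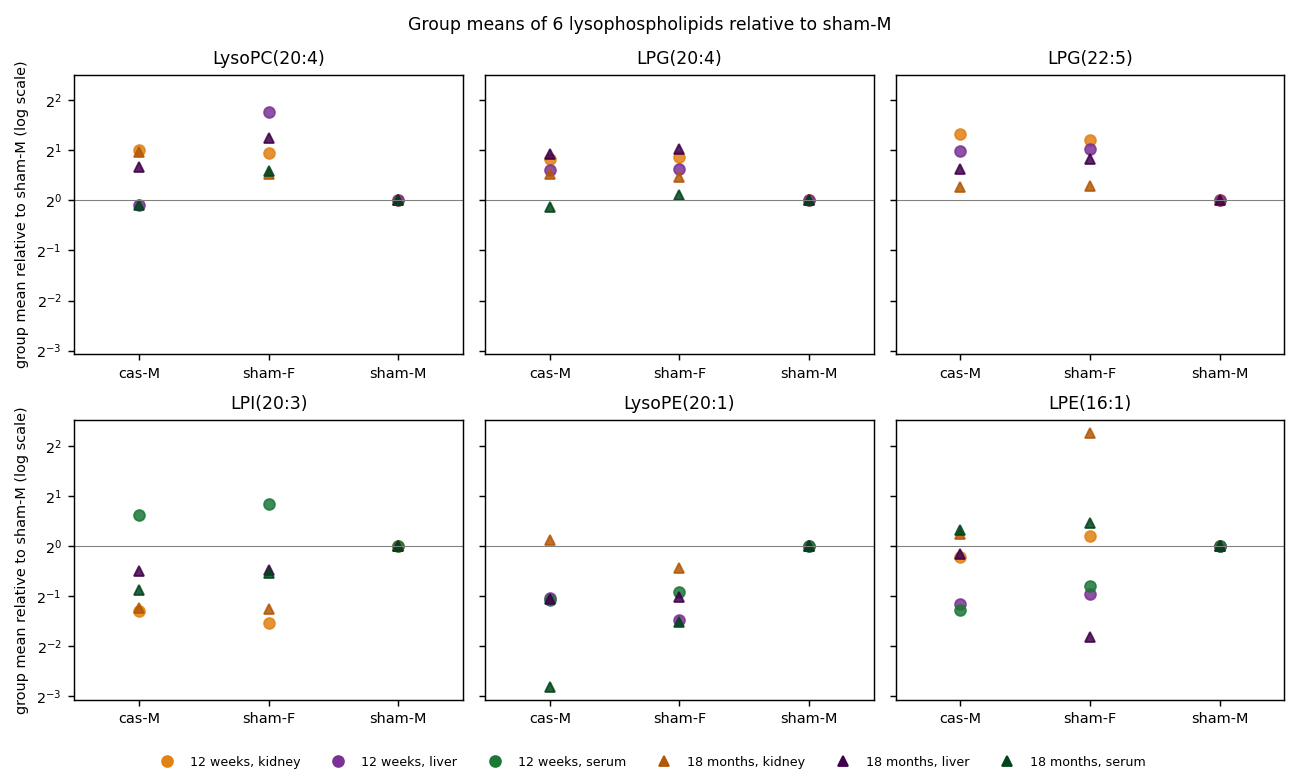
Group means of 6 lysophospholipids relative to the sham-M mean of the same table (vertical axis, ratio on a log scale) in cas-M, sham-F and sham-M, with 12-week tables as circles and 18-month tables as triangles. No error bars are drawn because the tables hold no spread. LPG(20:4) and LPG(22:5) lie above 1 in cas-M and sham-F in the kidney and liver tables, and LysoPE(20:1) lies below 1 in both arms in liver and serum.

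Across ages, which do not share animals, the castration ratios of kidney lysophospholipids kept their sign in 35 of 54 shared names (64.8%), beside 251 of 451 shared compounds (55.7%). In liver it was 32 of 66 (48.5%, beside 50.3%), and in serum 34 of 68 (50%, beside 54.2%). For sex the counts were 30 of 54 in kidney (55.6%, beside 54.8%), 44 of 66 in liver (66.7%, beside 53.4%) and 34 of 68 in serum (50%, beside 50.9%). Liver and serum of the same age had the same sign of the castration ratio in 34 of 53 shared lysophospholipids at 12 weeks (64.2%, beside 55.5% of all shared compounds) and 42 of 66 at 18 months (63.6%, beside 57.3%). These shares are descriptions, and members within a table share their samples. Of the 30 names in all 6 tables, 2 were above 0 for castration in every table (6.67%, beside 4.13% of all compounds in 6 tables), and 0 were below 0 in every table (beside 4.13%). Of the 23 names in 5 tables, 1 was above 0 for castration in all 5 and 1 below (4.35% each, beside 6.63% each). For sex, 3 of these 23 were above 0 in all 5 and 1 below (13% and 4.35%, beside 6.02% and 4.82%).

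Entries of the same head group and chain in the same table show how far a name can be relied on. There were 100 such pairs, for example LPC(20:4) and LysoPC(20:4). Their castration ratios lay on the same side of 0 in 62 pairs, and their log2 ratios differed by a median of 0.32 and by at most 2.75. In 33 pairs they differed by more than the 1.5-fold limit itself, and in 3 pairs the entries passed it in opposite directions. For sex, 62 pairs lay on the same side, 27 differed past the limit and 0 passed it in opposite directions. Whether such entries are isomers, adducts or a doubtful assignment is not stated. Compounds next to lysophospholipids in metabolism, chosen after their values were seen, gave context in the same tables. Glycerophosphocholine, what remains of LPC once its chain is removed, was lower in 12-week liver, at 1.91 in cas-M and 1.96 in sham-F, against 4.21 in sham-M, and higher in 18-month kidney, at 3.61 in cas-M and 4.52 in sham-F, against 1.95 in sham-M. In the other tables it was within the limit, with castration log2 ratios of 0.29 in 12-week kidney, 0.54 in 12-week serum, 0.08 in 18-month liver and 0.05 in 18-month serum. Free arachidonic acid had 259.8 in cas-M and 288 in sham-F, against 215 in sham-M in 12-week kidney and 35.3 in cas-M and 38.7 in sham-F, against 27.1 in sham-M in 12-week liver, within the limit for both comparisons, as in both 18-month organs and in 18-month serum. In 12-week serum it was past the limit for both, at 0.00753 in cas-M and 0.00813 in sham-F, against 0.00485 in sham-M. Choline and the docosahexaenoic, adrenic, linoleic, palmitoleic and eicosenoic acids were within the limit for castration in every table where they were read. Palmitoleic acid was above 0 in 12-week serum (0.42), where LPE(16:1) was lower (-1.28). Adrenic acid was below 0 in 12-week and 18-month liver (-0.39 and -0.35). These are castration ratios, and several sex ratios of the same compounds passed the limit. Palmitoleic acid was lower for sex in 18-month kidney (-1.33) and 18-month serum (-0.62), and linoleic acid in 18-month kidney (-0.88). Adrenic acid was lower for sex in 12-week and 18-month liver (-0.69 and -0.77), and choline was higher in 18-month serum (0.71). Their remaining sex ratios were within the limit.

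RNA of the same tissues was read for 108 genes (106 of them at 12 weeks) that make, remake, break down, carry, sense or supply lysophospholipids. A gene is said to have risen or fallen where the authors' deposited test gave an adjusted p under 0.05 (0.000475954 is the smallest that occurs for these genes in 12-week kidney). These tests measure the spread between libraries, how many libraries share a direction is unknown, and in bulk tissue fewer cells of a type cannot be told apart from less RNA per cell. The 12-week comparison tables list each gene for only 1 of their 3 comparisons, so 12-week counts are lower bounds. In 12-week kidney, castration gave 7 risen and 17 fallen of 32 listed members (21.9% and 53.1%, against 22.6% and 26% of 5598 listed genes). In 18-month kidney 21 rose and 21 fell of 105 (20% each, against 9.56% and 13.1%). In 12-week liver 7 rose and 11 fell of 46 (15.2% and 23.9%, against 12.1% and 12.8%), and in 18-month liver 2 rose and 1 fell of 104 (1.92% and 0.962%, against 1.08% and 1.01%). Sex gave 5 risen and 9 fallen of 16 in 12-week kidney (31.2% and 56.2%, against 41.8% and 39.7% of 3200 listed genes), and 19 and 14 of 107 in 18-month kidney (17.8% and 13.1%, against 7.91% and 8.9%). In 12-week liver it gave 2 and 3 of the 5 listed, where every one of the 628 listed genes was called (47.1% rose and 52.9% fell), and in 18-month liver 9 and 7 of 105 (8.57% and 6.67%, against 5.87% and 3.91%). The median difference of log2(mean + 1) over all members was between 0.00 and 0.14 in each of these comparisons, beside 0.00 to 0.07 over all genes.

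Among genes that remake phospholipids from lysophospholipids, more fell than rose with castration in kidney. At 12 weeks 1 rose and 3 fell of the 4 listed, of 15 measured (22.6% and 26% of all listed genes rose and fell). At 18 months 2 rose and 5 fell of 14 listed (9.56% and 13.1%). Sex did not share this at 18 months, where 1 rose and 0 fell of 14 listed (7.91% and 8.9%). At 12 weeks only 1 of these genes was listed for sex, and it fell (39.7% of all listed genes fell). Lpcat3 encodes the acyltransferase that prefers polyunsaturated chains on LPC and lies on chromosome 6, positions 124663027 to 124704418 of mm10. It had 56.7 in cas-M and 55.6 in sham-F, against 95.8 in sham-M FPKM in 12-week kidney, and 48.9 in cas-M and 53.1 in sham-F, against 52.7 in sham-M in 18-month kidney in the unnamed unit of that age, and it fell in both (authors' adjusted p = 0.000475954 and 0.000418). The 18-month means of Lpcat3 differed little, and the authors' deposited fold changes run lower than the ratio of these means, by a median log2 of 0.15 for castration and 0.13 for sex in kidney and 0.15 and 0.21 in liver over genes with means of at least 5. Directions at 18 months are those of the authors' fold. Lpgat1, which acylates LPG and other lysophospholipids, had 8.29 in cas-M and 7.45 in sham-F, against 11.6 in sham-M FPKM in 12-week kidney and 19.3 in cas-M and 31.5 in sham-F, against 25.4 in sham-M in 18-month kidney, and fell with castration in both. Mboat7, the acyltransferase that puts arachidonate on LPI, had 19.7 in cas-M and 20.4 in sham-F, against 21.0 in sham-M in 18-month kidney, a fall in the authors' test.

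With castration, genes of lysophospholipid breakdown fell or were not called in 12-week kidney and changed in both directions in 18-month kidney. Lypla1, a lysophospholipase and depalmitoylating enzyme, had 57.0 in cas-M and 55.3 in sham-F, against 146 in sham-M FPKM in 12-week kidney and 118 in cas-M and 149 in sham-F, against 192 in sham-M in 18-month kidney, a fall for castration at both ages. Enpp2, which encodes autotaxin, had 32.2 in cas-M and 25.8 in sham-F, against 58.8 in sham-M FPKM and fell in 12-week kidney (difference of log2(mean + 1) of -0.85), and fell at 18 months too, with 93.2 in cas-M and 90.5 in sham-F, against 120.1 in sham-M. In 12-week liver Pnpla7, a lysophospholipase of the endoplasmic reticulum, had 61.4 in cas-M and 73.3 in sham-F, against 171 in sham-M FPKM (difference of -1.46, adjusted p = 0.000855834). Lyplal1 went the other way in kidney, with 74.3 in cas-M and 103 in sham-F, against 39.1 in sham-M at 18 months. In 12-week kidney it rose with sex, with 32.0 in cas-M and 51.2 in sham-F, against 20.2 in sham-M FPKM. In all, castration gave 0 risen and 4 fallen of the 5 breakdown genes listed in 12-week kidney (22.6% and 26% of all listed genes), of 17 measured. In 18-month kidney 5 rose and 4 fell of 17 (9.56% and 13.1%). Sex gave 2 risen and 2 fallen of 5 listed in 12-week kidney (41.8% and 39.7%). At 18 months it gave 3 risen and 3 fallen of 17 in kidney (7.91% and 8.9%).

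Of the genes whose enzymes make lysophospholipids, 7 rose and 3 fell with castration in 18-month kidney, of 25 listed and 26 measured (9.56% and 13.1% of all listed genes). Plaat3, a phospholipase A of organelle membranes, had 29.6 in cas-M and 25.7 in sham-F, against 11.7 in sham-M there (authors' log2 fold of 0.98) and 10.8 in cas-M and 12.0 in sham-F, against 3.64 in sham-M in 18-month liver (1.13, adjusted p = 1.91e-05), one of the 2 members that rose with castration in that liver. The other was Pla2g4f, with 0.558 in cas-M and 0.383 in sham-F, against 0.0367 in sham-M. Pla2g7, the plasma platelet-activating factor acetylhydrolase, had 15.1 in cas-M and 17.4 in sham-F, against 7.17 in sham-M in 18-month kidney and rose. It rose with sex in 18-month liver as well, with 3.31 in cas-M and 9.58 in sham-F, against 1.33 in sham-M, as did Lpcat2, with 1.11 in cas-M and 2.82 in sham-F, against 0.603 in sham-M. The macrophage markers Adgre1, Csf1r, Cd68 and Lyz2, 4 of 4 above 0 in each arm, summed there to 79.7 in cas-M and 274 in sham-F, against 53.1 in sham-M, and their part in the rises of Pla2g7 and Lpcat2 was not tested. At 12 weeks the makers held 0 risen and 0 fallen genes for castration in kidney, of 4 listed.

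Of the genes that supply chains, more fell than rose with castration in the 12-week organs, with 1 rise and 7 falls of 8 listed in kidney (22.6% and 26% of all listed genes) and 2 rises and 5 falls of 8 listed in liver (12.1% and 12.8%), of 17 measured in each. In 18-month kidney 4 rose and 3 fell with castration of 17 (9.56% and 13.1%), and 9 rose and 2 fell with sex (7.91% and 8.9%). In 18-month liver 0 rose and 1 fell with castration (1.08% and 1.01%), and 1 rose and 2 fell with sex (5.87% and 3.91%). Elovl3, which elongates saturated and monounsaturated chains beyond 18 carbons, lies on chromosome 19, positions 46131897 to 46135694 of mm10, on the plus strand. It had 0.513 in cas-M and 0.661 in sham-F, against 251 in sham-M FPKM in 12-week liver (difference of log2(mean + 1) of -7.38, adjusted p = 0.000855834) and 9.64 in cas-M and 2.68 in sham-F, against 197 in sham-M in 18-month liver (adjusted p = 0.000656). Scd1, the desaturase that makes 16:1 and 18:1 chains, had 1011 in cas-M and 1000.5 in sham-F, against 2333 in sham-M FPKM in 12-week liver and fell with castration. Elovl5 had 155 in cas-M and 179 in sham-F, against 360.5 in sham-M FPKM there, also a fall. In kidney the same desaturase separated the sexes, Scd1 having 40.0 in cas-M and 172 in sham-F, against 35.3 in sham-M FPKM at 12 weeks and 62.5 in cas-M and 433 in sham-F, against 32.7 in sham-M at 18 months. Fads2, the first desaturase on the way to polyunsaturated chains, had 9.64 in cas-M and 9.79 in sham-F, against 24.9 in sham-M FPKM in 12-week kidney and 68.5 in cas-M and 80.4 in sham-F, against 86.7 in sham-M in 18-month kidney and fell with castration in both. Acsl1, a ligase that activates fatty acids, rose in 18-month kidney, at 143 in cas-M and 179.9 in sham-F, against 60.4 in sham-M. The supply genes Elovl2 and Elovl6 rose there with castration and with sex. Elovl2 had 12.97 in cas-M and 26.79 in sham-F, against 5.92 in sham-M. Elovl6 had 7.76 in cas-M and 19.58 in sham-F, against 3.14 in sham-M. At 12 weeks Elovl6 rose with sex in kidney, and Elovl2 fell with sex in liver.

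Head-group and ether-lipid genes changed in both directions in kidney with castration, with 3 risen and 3 fallen of 7 listed at 12 weeks (22.6% and 26% of all listed genes) and 3 risen and 5 fallen of 19 at 18 months (9.56% and 13.1%). For sex 0 rose and 3 fell of 3 listed at 12 weeks (41.8% and 39.7%), and 1 rose and 5 fell of 19 at 18 months (7.91% and 8.9%). Chkb, a choline kinase, had 129.9 in cas-M and 155 in sham-F, against 54.0 in sham-M FPKM in 12-week kidney and rose with castration. Agps, the peroxisomal enzyme that forms the ether bond, lies on chromosome 2, positions 75832177 to 75931350 of mm10. It had 12.8 in cas-M and 13.8 in sham-F, against 51.0 in sham-M FPKM at 12 weeks, where it fell with sex, and 14.9 in cas-M and 23.8 in sham-F, against 43.9 in sham-M at 18 months, where it fell with castration (authors' log2 fold of -1.72). Chpt1, the choline phosphotransferase that makes phosphatidylcholine, had 252 in cas-M and 241 in sham-F, against 723 in sham-M FPKM in 12-week kidney and 115 in cas-M and 62.0 in sham-F, against 183 in sham-M in 18-month liver, and fell with sex in both. Of 14 transport and receptor genes, 2 of 4 listed rose with castration in 12-week kidney (22.6% of all listed genes) and 2 of 10 listed in 12-week liver (12.1%). They were Lpar6, an LPA receptor, and Gpr132, a receptor linked to LPC, in both organs. Mfsd2a, which carries LPC with docosahexaenoic acid into cells, had 2.25 in cas-M and 15.7 in sham-F, against 3.74 in sham-M in 18-month kidney, a fall with castration and a rise with sex.

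**Figure D5:**
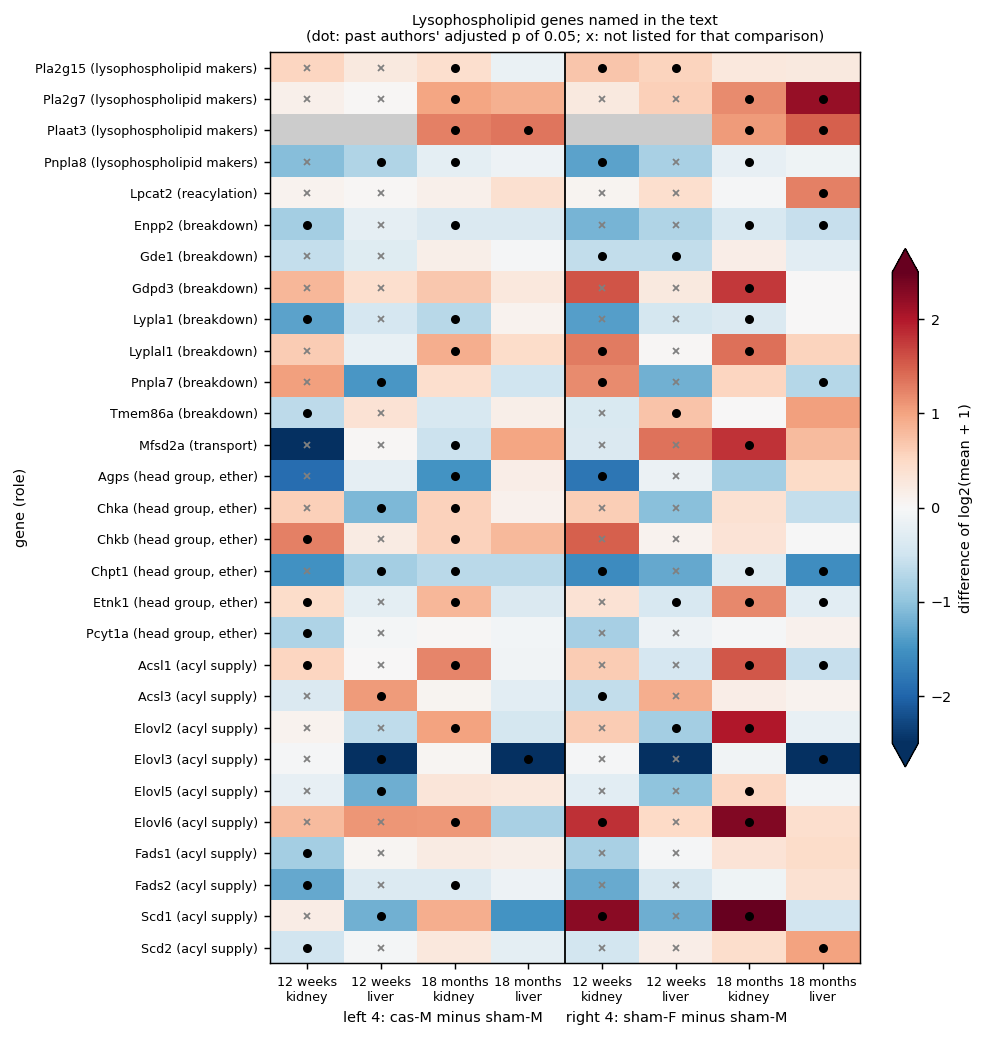
Difference of log2(mean + 1) of the lysophospholipid genes named by the rule (rows, with their roles), for cas-M minus sham-M (left 4 columns) and sham-F minus sham-M (right 4 columns) in kidney and liver at both ages. Dots mark genes past the authors' adjusted p of 0.05, crosses mark genes not listed for that comparison, and the colours end at 2.5. Elovl3 is the darkest blue in liver and Scd1 the darkest red for sex in kidney.

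The tissues matched their labels in most markers. Of the 6 liver markers, 5 were above 0 in every arm of 12-week liver and Alb was listed at 0 in all 3 arms, while all 6 were above 0 at 18 months. Of the 7 kidney markers, 7 were above 0 in kidney at both ages, except that Kap was listed at 0 in sham-M at 12 weeks. Their summed levels in kidney differed widely between arms. The sums were 2920 in cas-M and 29894 in sham-F, against 2462 in sham-M at 12 weeks. At 18 months they were 5262 in cas-M and 30239 in sham-F, against 79035 in sham-M. What lies behind these sums and the values listed at 0 was not tested. Blood cell markers summed to 3406 in cas-M and 1762 in sham-F, against 2231 in sham-M in 18-month kidney, and to 954 in cas-M and 561 in sham-F, against 659 in sham-M in 18-month liver. At 12 weeks they summed to 203 in cas-M and 297 in sham-F, against 259.9 in sham-M in kidney, and to 84.2 in cas-M and 103 in sham-F, against 152 in sham-M in liver. Cas-M was thus highest in both organs at 18 months and lowest in both at 12 weeks. How these moved with the lysophospholipid values was not tested.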

How the data were processed

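Per the file headers, the authors deposited 1 mean relative abundance signal per arm and compound, with names assigned from fragment spectra. How it was scaled is not stated, and serum at 12 weeks is on a far smaller scale. Log2 ratios of the means were computed, with the 1.5-fold limit and no test. For RNA (Trizol, polyadenylated, reads of 150 bp, per the labels), the authors deposited 12-week FPKM, with 0.01 added per the values, and an 18-month expression signal of unnamed unit, each as group means. The deposited p-values, adjusted p-values, test statistics (score) and log2 fold changes are the authors' own, at 18 months from DESeq2, per the file headers. The 18-month log2 fold runs second-named over first-named group, so its sign was turned. HISAT2, SAMtools, Cufflinks and mm10 are named in the submitters' processing notes, and positions are from GENCODE annotation on mm10.

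The planned fits per sample could not be made from means. The members and lists were chosen with earlier results of these data known. Compounds named are those past the limit, the most abundant per head group and those in several tables, and other compounds are named as examples. Genes named are called list members with a mean of at least 1, up to 6 per comparison by size, and others were chosen after their values were seen. Differences of genes use a pseudocount of 1. The ratio step was tested on simulated data. Python 3.11.15, pandas 2.3.3, numpy 2.4.6 and matplotlib 3.10.9 were used. The alternatives tried were a 2-fold limit, centring, summing entries of 1 species, leaving out the lowest 25% of a table, a wider naming, a pseudocount of 0.1, an adjusted p of 0.01 and a minimum gene mean of 1. The values of 1 compound are not reported here.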

Additional observations from a re-analysis of the deposited data

How the results depend on the processing

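The direction with more entries past the limit changed in serum for sex. At 12 weeks it was 11 higher and 14 lower, against 4 and 1 with a 2-fold limit and 15 and 14 with a naming that adds LPA entries. At 18 months it was 13 higher and 8 lower, against 2 and 3 with a 2-fold limit and 6 and 6 with entries of 1 species summed. In the other 10 comparisons it stayed under the 5 alternatives run. With a limit of 2-fold, the counts of higher and lower lysophospholipids for castration were 5 and 2 in 12-week kidney, 0 and 6 in 12-week liver, 4 and 8 in 12-week serum, 3 and 4 in 18-month kidney, 7 and 5 in 18-month liver and 0 and 4 in 18-month serum. For sex they were 5 and 2, 2 and 5, 4 and 1, 3 and 5, 8 and 3, and 2 and 3 in the same tables. These are fewer by construction. Leaving out the lowest 25% of each table gave 7 higher for sex in 12-week kidney and 6 lower in 18-month liver. Summing entries of 1 species gave, for sex, 3 higher in 18-month kidney, 5 lower in 18-month liver and 6 higher in 18-month serum, and for castration 0 higher in 18-month serum. Centring on the table median gave 5 lower for sex in 18-month serum. The other 22, 20 and 23 counts under these 3 settings, and all 24 under a naming that adds LPA entries, stayed within 1.5 times. For genes, an adjusted p of 0.01 gave 3 risen for castration in 12-week liver, 1 in 18-month liver and 3 for sex in 18-month liver. Leaving out genes with a mean under 1 gave 1 risen for castration in 18-month liver. With a pseudocount of 0.1, all 149 gene differences kept their direction. No paired analysis was possible because the files hold group means only, and for the same reason no replicate was left out and no sample was checked for standing apart. The missing spread limits every lysophospholipid ratio, most of all at low abundance.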
